A study of Homo sapiens with 6 samples.

Results

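The transcripts of 10 cytokine and chemokine genes were measured in PaTu8988t cells, an established human pancreatic ductal adenocarcinoma (PDAC) cell line, with and without the chromatin regulator SAMD1. The genes were taken by symbol, as a fixed list, from the 20347 gene symbols of the RNA-seq table, and all 10 were found. They are the CXC chemokines *CXCL1*, *CXCL2*, *CXCL3*, *CXCL5* and *CXCL8*, the CC chemokines *CCL2* and *CCL20*, and the cytokines *IL1A*, *IL6* and *LIF*. The series held 6 libraries, 3 replicates labelled Control and 3 labelled SAMD1 KO, all from cells for which the labels give the same serum-containing medium. The KO cells were made with CRISPR/Cas9, and the study describes them as 3 independent clones, selected with puromycin, whereas control cells received the same vector with an unspecific guide RNA. The methods used here do not say whether the control replicates were separate clones or which guide each KO clone carried, so p-values measure the spread between these libraries.

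Chemokines are small secreted proteins that attract leukocytes. The CXC members measured here act mainly on neutrophils through the receptors CXCR1 and CXCR2, CCL2 attracts monocytes through CCR2, and CCL20 attracts CCR6-bearing lymphocytes and dendritic cells. IL-1α is an inflammatory cytokine that starts NF-κB signalling through IL1R1, and IL-6 and LIF signal through receptor complexes that share gp130, the product of *IL6ST*, to JAK kinases and STAT3. In pancreatic tumours, these factors are known from the exchange of signals between tumour cells, fibroblasts and infiltrating leukocytes. Many of their promoters carry binding sites for NF-κB, while SAMD1 is known to bind unmethylated CpG islands.

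RefSeq promoter sequences (GRCh38.p14) were matched for 8 of the 10 genes, all but *CCL2* and *LIF*. The 150 bases before the annotated start are given for the chemokines that were expressed and for *IL1A*, because they show which letters near the start the chemokines share. Capitals mark matches to the κB consensus, to GGAATTTCC, which overlaps it, or to TGANTCA, a sequence bound by AP-1, each searched on both strands. The windows are chr4:73869243-73869392 (plus strand), chr4:74099196-74099345 (minus), chr4:74038690-74038839 (minus), chr4:73740419-73740568 (plus), chr2:227813692-227813841 (plus) and chr2:112784494-112784643 (minus), each written 5′ to 3′ along the gene.
CXCL1: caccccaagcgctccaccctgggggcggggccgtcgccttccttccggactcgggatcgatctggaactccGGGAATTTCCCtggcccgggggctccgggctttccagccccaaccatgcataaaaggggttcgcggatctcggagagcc
CXCL2: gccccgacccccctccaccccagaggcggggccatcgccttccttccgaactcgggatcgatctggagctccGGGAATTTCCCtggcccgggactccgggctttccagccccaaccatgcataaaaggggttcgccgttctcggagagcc
CXCL3: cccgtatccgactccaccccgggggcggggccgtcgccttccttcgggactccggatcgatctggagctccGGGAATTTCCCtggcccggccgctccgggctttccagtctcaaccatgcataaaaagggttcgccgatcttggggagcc
CXCL8: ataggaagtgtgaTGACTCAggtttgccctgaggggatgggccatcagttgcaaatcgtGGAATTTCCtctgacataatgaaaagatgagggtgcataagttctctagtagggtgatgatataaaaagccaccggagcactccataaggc
CCL20: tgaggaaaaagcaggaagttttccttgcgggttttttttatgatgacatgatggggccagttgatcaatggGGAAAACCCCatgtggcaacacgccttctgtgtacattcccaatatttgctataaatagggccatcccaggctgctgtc
IL1A: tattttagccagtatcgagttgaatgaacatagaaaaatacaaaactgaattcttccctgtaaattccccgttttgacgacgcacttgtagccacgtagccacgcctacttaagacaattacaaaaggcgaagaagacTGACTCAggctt
*CXCL1*, *CXCL2* and *CXCL3* hold GGGAATTTCC at nearly the same place, with its first base at −79, −78 and −79, where −1 is the base before the start. *CXCL5* holds the same 10 letters from −91. *CXCL8* holds GGAATTTCC from −91 and TGACTCA from −137. *CCL20* holds a κB match on the opposite strand from −79, *IL6* holds GGGATTTTCC from −73, and *IL1A* holds TGACTCA from −12 and no κB match in the 250 bases searched. Of 35116 promoters of the same length, 5.2% hold a κB consensus match, 0.4% hold GGAATTTCC and 6.6% hold TGANTCA. The number of CpG dinucleotides in these 250 bases was 18, 20 and 19 for *CXCL1*, *CXCL2* and *CXCL3*, against 4 for *CXCL8*, 3 for *CCL20*, 7 for *IL1A* and a median of 11 over all promoters. These matches are a description of the sequence, and no binding data were used here.

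Library totals lay between 35589477 and 45172216 recovered reads. *SAMD1* itself had a mean normalized count of 2304 ± 76.1 in control and 927 ± 136 in KO cells (SD, n = 3 per group), so its transcript was reduced but present in each KO library. Of the epithelial markers, *KRT8* and *KRT18* were abundant, *EPCAM* had 537 ± 28.9 normalized counts in control cells (SD, n = 3), and *KRT19* was listed at 0 in all 6 libraries. Immune cells, a main source of many cytokines in tissue, left little trace: 7 of 8 immune marker genes were under a mean of 10, *CD3E* and *MS4A1* had no reads and *PTPRC* had at most 3 reads in a library. The summed level of the 8 markers, nearly all of it *CD68*, ran from 359 to 383 in control and from 255 to 335 in KO cells. Of 5 tested epithelial markers 2, *KRT7* and *KRT18*, were called higher in KO cells by the rule given next, and of 3 tested endothelial markers limma and edgeR called 0 and DESeq2 called 1 lower. That gene, *CDH5*, had 37.7, 29.4 and 32.1 normalized counts in controls 1 to 3 and 2.97, 17.3 and 11.7 in the clones. Of 3 tested fibroblast markers limma called 1 higher, edgeR and DESeq2 each called 2 higher, and none of these tools called any lower. The one called by limma, *PDGFRA*, had 3.98 ± 0.57 in control and 17.9 ± 5.1 in KO cells (SD, n = 3 per group), and met the minimum mean only through the KO group. *COL3A1* had 111 ± 2.3 and 270 ± 134, whereas *COL1A1* went the other way, with 50.6 ± 1.9 and 26.2 ± 13.6 (SD, n = 3 per group). Summed fibroblast markers ran from 167 to 170 in control and from 164 to 458 in KO cells, with *DCN* and *LUM* at 0 in all libraries, and summed endothelial markers from 80.1 to 85.9 and from 35.6 to 85.4. Their part in the results was not tested. A gene was tested where its mean normalized count was at least 10, which left 12773 genes. The study's methods state a cut-off of 0.5 for the log2 fold change (log2FC) and 0.01 for p, with DESeq2. Here a gene was called by the same values with limma, where its log2FC lay beyond 0.5 with an unadjusted limma p below 0.01. By this rule, 5.77% of the tested genes were called higher and 2.08% lower in SAMD1 KO cells.

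Of the 10 genes, 7 passed the minimum and 3, *CXCL5*, *IL6* and *CCL2*, did not. *IL1A* was called lower, and no gene was called higher by limma, although *CXCL1*, *CXCL2* and *LIF* had an unadjusted p below 0.05. With DESeq2 on the recovered reads 2 genes, *CXCL1* and *LIF*, were called higher, and with edgeR 0. Of all 12773 tested genes, 2059 had an unadjusted limma p below 0.05 with a higher and 1724 with a lower level. By the same cut-off for a call, DESeq2 called 830 of all tested genes higher and 265 lower, and edgeR 779 and 247. These counts are the background for the same counts in the lists below. With the adjusted limma p held below 0.05 in place of the unadjusted one, 0 of the 7 were called, against 5.34% of all tested genes called higher and 1.87% lower. The groups did not overlap for 2 of the 7, *CXCL2* and *IL1A*, beside 37.8% of all tested genes. With DESeq2 the adjusted p was 0.0413 for *CXCL1*, 0.0306 for *LIF* and 0.00842 for *IL1A*. The median log2FC over the 7 genes was 0.58, and 6 of them had a positive value, beside a median of −0.006 over all tested genes. Their clones differed widely from each other, so that the count of genes called higher was 3 without KO clone 1 and 1 without clone 3.

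**Figure D1:**
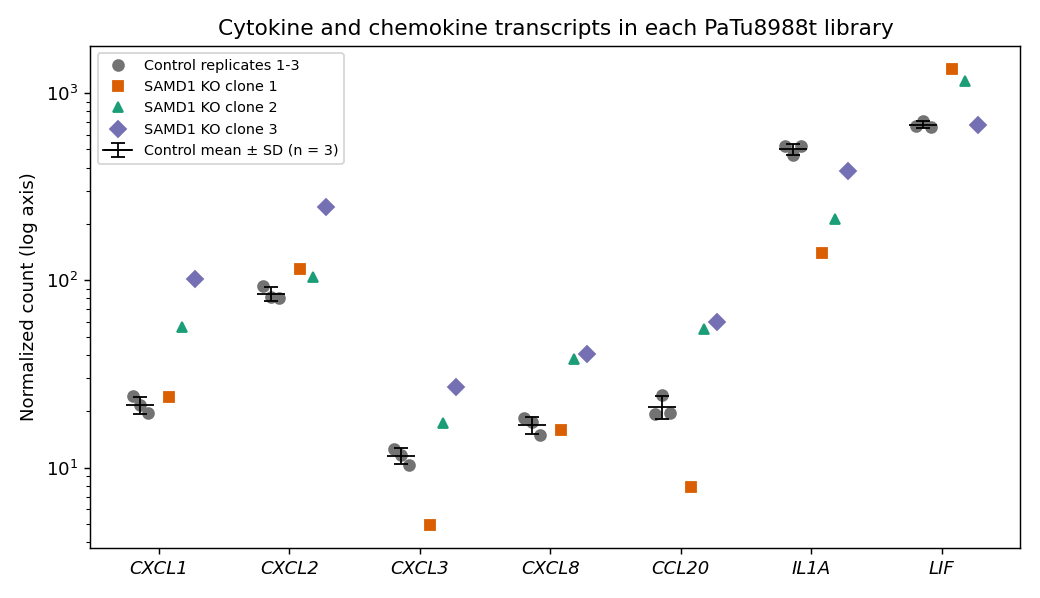
Normalized counts (log axis) of the 7 tested genes in each library, with control replicates in grey beside their mean ± SD (n = 3) and each SAMD1 KO clone as its own symbol. Control replicates lie close together, whereas the clones are spread, with clone 1 lowest for *CXCL1*, *CXCL3*, *CXCL8*, *CCL20* and *IL1A* and highest for *LIF*.

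Levels were compared between genes as normalized counts per kilobase of annotated exon (GENCODE 44). In control cells, *IL1A* was highest at 249.5 ± 16.5 (SD, n = 3), ahead of *LIF* at 175.6 ± 7.2 and *CXCL2* at 60.9 ± 5.4 (SD, n = 3 per group). *CXCL1* followed at 15.9 ± 1.7 and *CCL20* at 13.3 ± 1.8, and the ranges of this pair overlapped. *CXCL8* had 6.5 ± 0.7 and *CXCL3* 5.2 ± 0.5 per kilobase (SD, n = 3 per group), while *CCL2*, *IL6* and *CXCL5* lay below 1 with overlapping ranges from gene to gene. In SAMD1 KO cells the order of the leading pair was exchanged, with *LIF* at 274.7 ± 90.3 and *IL1A* at 121.5 ± 61.9 (SD, n = 3 per group), but their ranges overlapped. The range of *IL1A* also overlapped that of *CXCL2*, at 111.1 ± 56.1 per kilobase.

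*CXCL1*, *CXCL2* and *CXCL3* encode the closely related GRO chemokines, and lie with *CXCL5* and *CXCL8* in a cluster on chromosome 4. *CXCL1* (chromosome 4, 73869393 to 73871308) measured 24.0, 21.5 and 19.5 normalized counts in controls 1 to 3, against 23.7, 56.2 and 101.6 in KO clones 1 to 3. Clone 1 lay inside the control range, clone 2 was 2.59 times and clone 3 4.69 times the control mean. The log2FC was 1.22 (standard error, SE, 0.48), with a limma p of 0.0382 and an adjusted p of 0.143. These values came from 17 to 22 reads in the control libraries and from 24, 65 and 113 reads in the clones. The 95% Poisson interval of clone 2, from 43.3 to 71.6 normalized counts, lay above those of all 3 control replicates, the highest of which ended at 36.7. Such intervals cover counting error only. In RNA from whole cultures, a larger share of expressing cells and more RNA per cell cannot be told apart. Without clone 1, the log2FC of *CXCL1* was 1.76 (limma adjusted p = 0.0116) and the gene was called higher, whereas without clone 3 it was 0.73 (adjusted p = 0.243).

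*CXCL2* (chromosome 4, 74097040 to 74099196) was the most abundant of the 7 chemokines among the 10 genes. Its normalized counts were 93.8, 81.2 and 80.2 in control and 115.7, 104.5 and 245.6 in the clones, so that the groups did not overlap, with KO cells higher, which held for 19.2% of all tested genes. Clone 3 held most of the difference, at 2.89 times the control mean against 1.36 and 1.23 times for clones 1 and 2. The log2FC of 0.75 (SE 0.32, limma adjusted p = 0.162) was 0.37 without clone 3. *CXCL3* (chromosome 4, 74036589 to 74038807) had only 9 to 12 reads in the control libraries. Its normalized counts were 12.6, 11.7 and 10.3 in control and 4.9, 17.3 and 27.0 in the clones, with clone 1 below and clones 2 and 3 above the control range. The log2FC was 0.21 with a 95% interval from −1.10 to 1.53 (limma adjusted p = 0.834), and it was 0.85 without clone 1 and −0.26 without clone 3. On the recovered reads it was 0.52 with edgeR and 0.51 with DESeq2 (adjusted p = 0.569 and 0.7). The transcripts of *CXCL2* share 4.16% of their 50-base windows with *CXCL1* and 9.63% with *CXCL3*, so a part of the reads of this family cannot be assigned with certainty.

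*CXCL8*, which encodes interleukin-8, and *CXCL5* attract neutrophils as well. *CXCL8* (chromosome 4, 73740519 to 73743716) had 18.3, 17.6 and 14.9 normalized counts in control and 15.8, 38.0 and 40.5 in the clones. Clone 1 lay inside the control range and clones 2 and 3 were 2.24 and 2.39 times the control mean. With all libraries the log2FC was 0.75 with a 95% interval from −0.15 to 1.65 (limma adjusted p = 0.24), and without clone 1 it was 1.17 (adjusted p = 0.021). Read numbers were low, from 13 to 18 in control and 16, 44 and 45 in the clones. *CXCL5* had at most 1 read in any library, so no difference could be seen at this depth.

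*CCL20* (chromosome 2, 227805739 to 227817564), the ligand of CCR6, separated the clones most. Its normalized counts were 19.4, 24.5 and 19.5 in control and 7.9, 55.3 and 60.3 in clones 1 to 3. Clone 1, with 8 reads, was at 0.374 times the control mean, whereas clones 2 and 3 were at 2.62 and 2.85 times. The clones spanned 2.78 on the log2 scale, and 0.532% of all tested genes had a span at least as wide. As the clones lay on both sides of the controls, the log2FC over all of them was 0.51 with a 95% interval from −1.15 to 2.16 (limma adjusted p = 0.673). Without clone 1 it was 1.42 (adjusted p = 0.00963). For the 40 genes nearest to *CCL20*, the median log2 difference ran to 0.13, 0.10 and 0.31 over clones 1 to 3, and with these removed the log2FC was 0.33. On the recovered reads it was 0.97 with edgeR and 0.96 with DESeq2 (adjusted p = 0.347 and 0.367). *CCL2*, which encodes a monocyte attractant, had 1, 1 and 3 reads in the control libraries and 0, 1 and 0 in the clones, at or under the floor of 3 reads used here, so no fold change is given.

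*IL1A* (chromosome 2, 112773925 to 112784493) encodes IL-1α, which is held in the cell and acts on neighbouring cells when released. It fell from 521.6, 464.7 and 523.5 normalized counts in control to 140.4, 211.7 and 383.2 in KO clones 1 to 3. All 3 clones lay below all controls, as for 18.6% of all tested genes, and clone 1 had 0.279, clone 2 0.421 and clone 3 0.761 times the control mean. The log2FC was −1.16 (SE 0.32, 95% interval from −1.91 to −0.40), with a limma p of 0.00841 and an adjusted p of 0.0584. An exact permutation test of the 6 values gave p = 0.1, the smallest that 3 against 3 libraries allow. The direction was the same in every fit, but the call was lost when any library but clone 3 was left out, with edgeR, with 75th percentile scaling and with the adjusted limma p, and it held with DESeq2 (adjusted p = 0.00842). The log2FC was −1.13, −1.21 and −1.13 without controls 1, 2 and 3, −0.82 without clone 1 and −1.11 without clone 2. Without clone 3 it was −1.54 (limma adjusted p = 0.00499).

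*LIF* (chromosome 22, 30240453 to 30246759) encodes leukaemia inhibitory factor, a member of the IL-6 family. Its normalized counts were 669.2, 711.3 and 658.6 in control and 1350, 1166 and 673.7 in the clones. Clones 1 and 2 had 1.99 and 1.72 times the control mean, and clone 3 lay inside the control range at 0.991 times. The log2FC of 0.59 (SE 0.24) had a limma p of 0.0402 and an adjusted p of 0.148. Without clone 3 it was 0.88 (adjusted p = 0.00313), and *LIF* was then called higher. *IL6* had 3, 1 and 6 reads in the control libraries and 0, 2 and 6 in the clones, so a difference was not detectable at this depth.

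**Figure D2:**
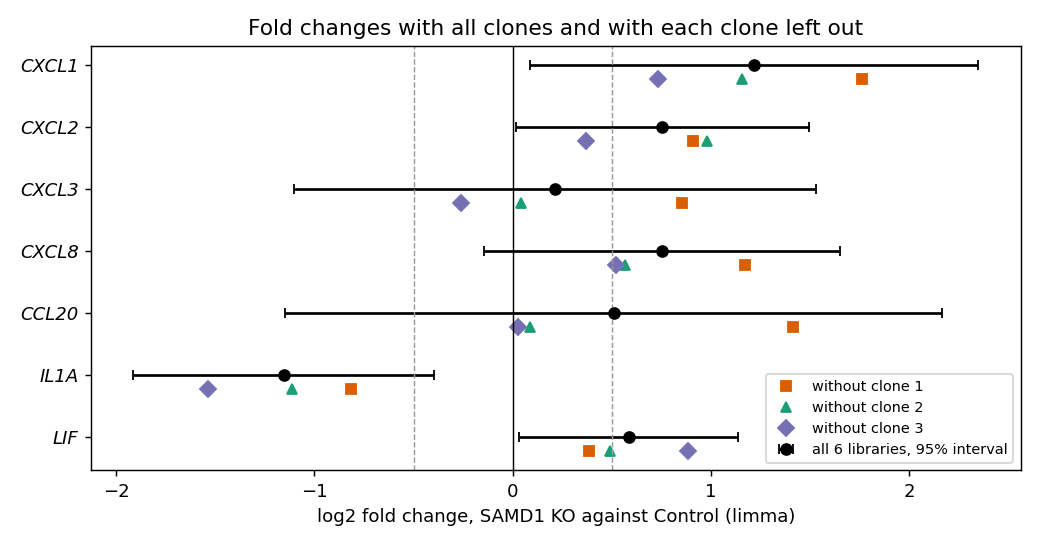
Log2 fold change (SAMD1 KO against Control, limma) of the 7 tested genes with all libraries and its 95% interval (black), and with each clone left out in turn (symbols). Dashed lines mark 0.5 in both directions. Leaving out clone 1 moves *CCL20* from 0.51 to 1.42, whereas leaving out clone 3 moves *CXCL3* to −0.26 and *LIF* to 0.88.

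The clones thus differed in opposite order for different cytokines. In clone 2 and in clone 3, 5 of the 5 tested chemokines lay above every control replicate, as did 41% and 39.6% of all tested genes. In clone 1, only *CXCL2* did so (39.3% of all tested genes), 2 of the 5 chemokines lay below every control (39.8% of all tested genes), and *LIF* was at its highest. The summed normalized counts of the 5 chemokines ran to 168, 157 and 144 in controls 1 to 3, against 168, 271 and 475 in the clones. For comparison, 7.99% of all tested genes had clones that spanned at least 1 on the log2 scale, and each of the 7 genes did. The control replicates spanned that much in 1.58% of all tested genes, and in none of the 7. Clone 1 had 5 reads for *CXCL3*, 8 for *CCL20*, 16 for *CXCL8* and 24 for *CXCL1*, so counting error is a part of these spans. It also bears on the positions of clones 2 and 3 above the controls. In both clones, the 95% Poisson intervals of *CXCL3* and *CXCL8* overlapped those of control replicate 1, as did that of *CXCL2* in clone 2. No test of the difference between single clones was made, as each is 1 library.

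The chemokine cluster and its neighbours on chromosome 4 were examined to see whether the genes around it moved with it. *ANKRD17*, at −667 kb from *CXCL8*, had a log2FC of −0.12, and *MTHFD2L*, which follows *CXCL2* 374 kb from *CXCL8* and encodes a mitochondrial folate enzyme, had −0.03. Normalized counts of *MTHFD2L* were 188.7, 210.4 and 185.6 in control and 176.0, 197.8 and 200.6 in the clones, with overlapping groups. *BTC*, which encodes the EGF family ligand betacellulin, had a log2FC of 0.007, and *RCHY1* and *THAP6* had −0.22 and −0.16. The groups of *ANKRD17* and *RCHY1* did not overlap and those of the other 3 did. *PARM1*, 1193 kb from *CXCL8*, was the only gene called among the 6 tested neighbours. It rose from 29.7 ± 5.6 to 98.5 ± 32.8 normalized counts (SD, n = 3 per group), a log2FC of 1.65 (limma adjusted p = 0.0142). The 40 nearest tested genes around the cluster had median log2 differences of −0.07, −0.07 and −0.03 in clones 1 to 3. Between *CXCL8* and *CXCL2*, the chemokine genes *CXCL6*, *PF4*, *PF4V1* and *PPBP* had at most 3 reads in any library.

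**Figure D3:**
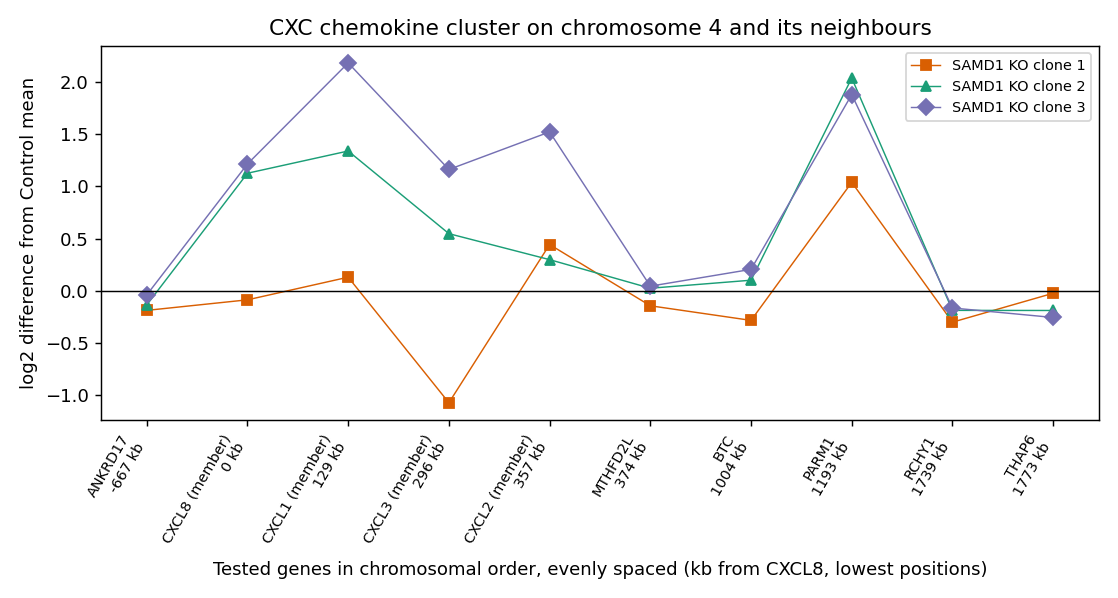
Log2 difference from the control mean in each SAMD1 KO clone for the tested genes of the CXC cluster on chromosome 4 and its neighbours, in chromosomal order and evenly spaced, with distances from *CXCL8* under the names. The chemokine genes separate the clones, whereas *ANKRD17*, *MTHFD2L*, *BTC*, *RCHY1* and *THAP6* lie between −0.301 and 0.205 in each clone.

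Receptors for these ligands differed in whether PaTu8988t cells expressed them at all. The neutrophil chemokine receptors *CXCR1* and *CXCR2*, the CCL2 receptor *CCR2* and the scavenger *ACKR1* had no reads in any library, and *CCR6* had 22.2 ± 3.6 normalized counts in control cells (SD, n = 3). In contrast, *IL6ST* and *OSMR*, subunits of receptors of the IL-6 family, had 15534 ± 690 and 9945 ± 345 normalized counts in control cells (SD, n = 3 per group), and *LIFR*, the LIF receptor, had 799 ± 44.6. Clone 2 was lowest for all 3, at 0.555, 0.481 and 0.898 times the control mean. All 3 genes lie on chromosome 5, and the part of their position was not tested. Of 8 tested receptor genes, limma called 1 lower and 0 higher, and 1 in each direction had an unadjusted limma p below 0.05. Both edgeR and DESeq2 also called 1 lower and 0 higher. *IL6R*, the IL-6 binding subunit, fell from 1469 ± 23.2 to 967 ± 192 normalized counts (SD, n = 3 per group), with 1181, 809.5 and 911.2 in clones 1 to 3. Its log2FC was −0.62 (SE 0.13, limma adjusted p = 0.0247), and it was called in all 15 other fits. *IL1R1*, which binds IL-1α, had a log2FC of 0.43 (SE 0.094, limma adjusted p = 0.0272), under the cut-off of 0.5, with 302 to 329 normalized counts in control and 403 to 455 in KO cells. *CCR6*, *IL6ST*, *LIFR*, *OSMR* and *IL1R1* were named after their values were seen.

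Of 17 further chemokine genes, 15 had at most 3 reads in every library and only *CXCL16* and *CCL28* were tested, of which limma called 0 (1 with an unadjusted p below 0.05, 0 by edgeR and 0 by DESeq2). *CXCL16*, a membrane-bound chemokine, had 625 ± 55.3 and 763 ± 168 normalized counts in control and KO cells (SD, n = 3 per group, limma adjusted p = 0.334). *CCL28*, a mucosal chemokine, had 61.8, 46.0 and 50.4 normalized counts in control and 75.2, 80.3 and 83.6 in the clones, without overlap, and a log2FC of 0.60 (limma adjusted p = 0.0689). Of 21 further cytokine genes, 11 were tested, and limma called 1 of these higher and 0 lower. An unadjusted limma p below 0.05 was found for 2 with a higher and 0 with a lower level. EdgeR called 1 higher and DESeq2 2, and both called 0 lower. *CSF1*, which encodes the macrophage growth factor M-CSF, rose from 418.7, 399.2 and 418.1 to 590.3, 664.4 and 755.5 normalized counts. Its log2FC was 0.69 (SE 0.11, limma adjusted p = 0.00757), and it was called in all 15 other fits. The median log2FC of the 11 cytokine genes was 0.01.

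NF-κB is the main inducible activator of most of these chemokine genes, in a canonical form built from RELA and p50 and a noncanonical form built from RELB and p52. All 28 listed NF-κB subunits and regulators were tested. Of these, 4 were called higher and 0 lower in KO cells by limma, by edgeR and by DESeq2. An unadjusted limma p below 0.05 was found for 7 with a higher and 0 with a lower level, and the median log2FC was 0.04. *NFKB2*, which encodes the precursor of p52, rose from 5661 ± 143 to 8831 ± 924 normalized counts (SD, n = 3 per group), with 9553, 7789 and 9149 in clones 1 to 3 and a log2FC of 0.64 (limma adjusted p = 0.00388). *RELB* rose from 1007 ± 41.4 to 1824 ± 520 (SD, n = 3 per group), with 1375, 1703 and 2394 in the clones and a log2FC of 0.82 (adjusted p = 0.0286). Its call was lost without control replicate 3, and its log2FC lay between 0.60 and 1.00 with a library left out. *BCL3*, which encodes a nuclear partner of p50 and p52, rose from 192 ± 27.2 to 349 ± 26.6 (SD, n = 3 per group), a log2FC of 0.87 (adjusted p = 0.00802). *BIRC3*, which encodes the ubiquitin ligase cIAP2, had a log2FC of 0.57 (limma adjusted p = 0.0639). Its call held without clone 2 and was lost, with fold changes from 0.38 to 0.75 over all such fits, when any other library was left out. The canonical subunit genes *RELA* and *NFKB1*, named after their values were seen, had log2FCs of −0.03 and −0.06, with 95% intervals from −0.17 to 0.12 and from −0.18 to 0.06.

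**Figure D4:**
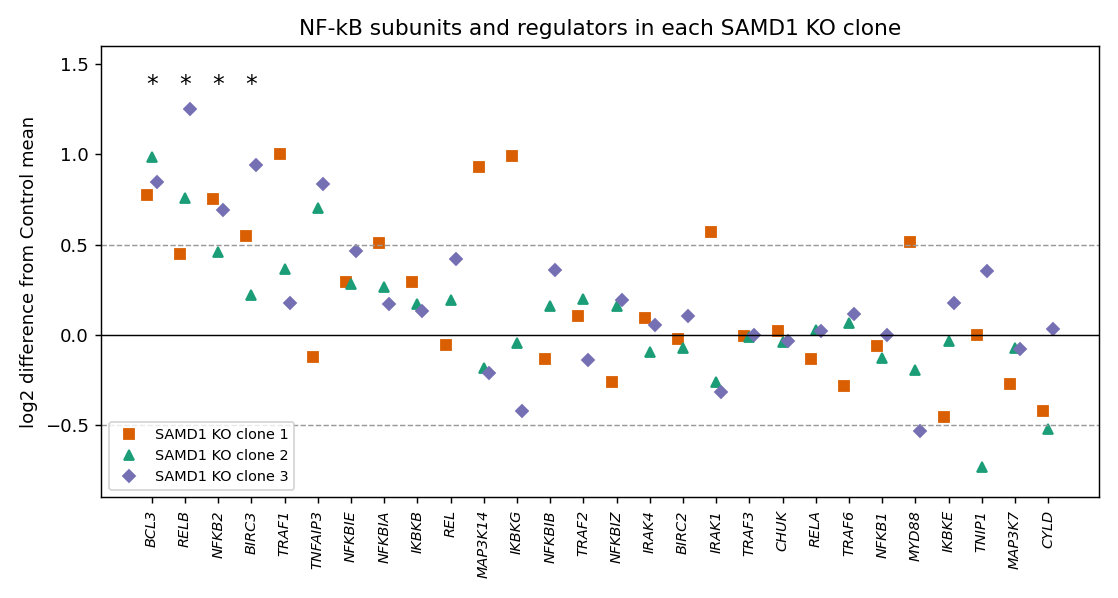
Log2 difference from the control mean in each SAMD1 KO clone for the 28 NF-κB subunits and regulators, ordered by log2FC. Asterisks mark the 4 called genes and dashed lines 0.5 in both directions. *BCL3*, *RELB*, *NFKB2* and *BIRC3* lie above 0 in each clone, whereas *MAP3K14*, *IKBKG* and *IRAK1* are high in clone 1 alone.

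Of 11 tested genes for the decay of cytokine mRNAs, 0 were called by limma, and 4 had an unadjusted p below 0.05 with a lower level (edgeR called 0 and DESeq2 1). The most abundant were *CNOT1*, the scaffold of the deadenylase complex, and *HNRNPD*, which encodes an AU-rich element binding protein, with log2FCs of −0.09 and −0.13. Over the list, log2FCs ran from −0.53, for *ZFP36* (limma adjusted p = 0.0823), to 0.22. Of 8 tested genes of the JAK and STAT3 arm, 0 were called by limma, edgeR or DESeq2, and 3 in each direction had an unadjusted limma p below 0.05. The most abundant were *PTPN11*, which encodes the phosphatase SHP2, and *JAK1*. *PTPN11* had 23733 ± 110 normalized counts in control and 19920 ± 225 in KO cells (SD, n = 3 per group), a log2FC of −0.25 (limma adjusted p = 0.0149). *JAK1* was higher in KO cells, at 5295 ± 154 and 6626 ± 250 (SD, n = 3 per group), a log2FC of 0.32 (limma adjusted p = 0.00926). *STAT3*, named after its values were seen, had 6055 ± 92.2 and 5069 ± 81.5 (SD, n = 3 per group). Its log2FC was −0.26 (limma adjusted p = 0.0132), and all 3 fold changes lay within the cut-off. Of the 5 C/EBP genes, 0 were called by limma (4 had an unadjusted p below 0.05 and a higher level, and edgeR and DESeq2 each called 1). *CEBPG* had a log2FC of 0.21 (limma adjusted p = 0.0376). *DDIT3*, which encodes the stress-induced factor CHOP, had 1032, 1686 and 2243 normalized counts in clones 1 to 3 against 875 ± 55.3 in control cells (SD, n = 3), a log2FC of 0.85 (limma adjusted p = 0.0683).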

How the data were processed

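RNA was sequenced from 3 control and 3 SAMD1 KO replicates of PaTu8988t cells with a stranded mRNA kit. The authors used RNA-STAR with GenCode 43 on hg38, and the submitters' processing notes list featureCounts and DESeq2. The strand setting and the treatment of reads with several matches are not given in the sources used here. The deposited signal holds normalized counts, reads per gene scaled by a factor of the library. Dividing by the smallest step of a library gave whole numbers for 100% of its values (tolerance 0.01 reads), and these served as recovered reads. A second deposited table holds the authors' own comparison (fold changes and p-values) and was not used.

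Groups and replicate numbers were taken from the sample titles, and 0 sample columns were left unused. The comparison used limma 3.58.1 in R 4.3.3 (lmFit and eBayes with trend) on log2(normalized count + 1) for genes with a mean of at least 10. The added 1 can change fold changes of low genes. With 0.1 in its place, the log2FC was 1.25 for *CXCL1* and 0.78 for *CXCL8*, against 1.22 and 0.75. It was 0.20 for *CXCL3* and 0.50 for *CCL20*, against 0.21 and 0.51. The p-values, all two-sided, were adjusted by Benjamini-Hochberg across the whole tested table. Alternatives were a pseudocount of 0.1 or 10, no minimum or a mean of at least 50, 75th percentile scaling, a block for the replicate number, the omission of single libraries, edgeR 4.0.16 and DESeq2 1.42.0 on the recovered reads, and an adjusted p below 0.05. The removal of the median shift of 40 neighbouring genes was chosen after seeing the data. On simulated counts for 12773 genes with 200 genes changed 2-fold in this comparison, limma recovered 196 and called 16 unchanged genes. The simulation gave every gene the same small dispersion between libraries. It therefore does not show how often a 2-fold change is found where the clones differ widely, as for the 7 tested genes.

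The 10 genes and all gene lists were chosen with earlier results of these data known. Beside them, the rule named *SAMD1*, every called gene of a pathway list (at most 5), otherwise its 2 most abundant genes, and the tested neighbours on chromosome 4. Genes named outside this rule, cell type markers included, were chosen after their values were seen. Gene positions and exon lengths are from GENCODE 44. Python 3.11.15 with SciPy 1.17.1 was used for the other steps. The number of libraries limits most values, while read numbers limit those of *CXCL3*, *CXCL8*, *CCL20*, *CXCL1*, *IL6*, *CCL2* and *CXCL5*.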

Additional observations from a re-analysis of the deposited data

How the results depend on the processing

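Of the 10 genes chosen, limma called 0 higher with all libraries, DESeq2 called 2, and limma called 0 to 3 when 1 library was omitted (3 without clone 1 and 1 without clone 3). The number called lower, 1 with all libraries, was 0 with 75th percentile scaling, with edgeR and with an adjusted p below 0.05, and 0 to 1 with a library left out. The median log2 fold change of the tested genes stayed between 0.37 and 0.91, and *CXCL3* was the only gene to turn direction, to −0.26 without SAMD1 KO clone 3 (0.85 without clone 1). With edgeR and DESeq2 it was 0.52 and 0.51 for *CXCL3* and 0.97 and 0.96 for *CCL20*, against 0.21 and 0.51 with limma. In the lists of receptors, other ligands, NF-κB genes, mRNA decay, JAK and STAT3, C/EBP factors and chromosome 4 neighbours, without the cell type markers, 6 genes were called higher and 4 to 10 with a library left out, of which 10 without clone 1. The 1 gene called lower became 2 without a minimum, with DESeq2 and with the regional shift removed, and 1 to 3 with a library left out (2 without clone 2 and 3 without clone 3). Over all genes, 737 were called higher and 266 lower, and 568 to 862 and 180 to 370 with a library left out.

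The deviations of same-numbered libraries correlated only weakly, at 0.039, 0.134 and 0.032 over 12773 genes. Even so, 5 of the 6 libraries correlated best with their own number. Whether the replicate numbers pair the libraries was not tested. With the replicate number as a block, 725 genes were called higher and 259 lower, 0 and 1 of the 10 genes were called, and 7 and 2 genes of the other lists were called. The causes were not tested.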

Other observations

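Most of the tested chemokines were lowest in clone 1 and highest in clone 3. For *CXCL3*, *CXCL8* and *CCL20*, however, the 95% Poisson intervals of clones 2 and 3 overlapped, whereas for *CXCL1* they did not. The same order of values was present in other genes of the lists, named here after their values were seen. The share of all tested genes with this order was not counted. *LTB*, which encodes lymphotoxin-β, had 214.6, 299.8 and 626.9 normalized counts in the 3 clones, with 179 ± 8.2 in control cells (SD, n = 3; limma adjusted p = 0.128). *IL32*, an inflammatory cytokine gene, had 2916, 4471 and 5457 against 3067 ± 43.2 (SD, n = 3; limma adjusted p = 0.202). *TNFAIP3*, which encodes the NF-κB inhibitor A20, had 281.8, 499.4 and 548.7 against 308 ± 21.9 (SD, n = 3; limma adjusted p = 0.24), so that clone 1 was just below the lowest control replicate at 282.8. Limma called none of the 3 genes.

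Other orders of the clones were present too, in genes also named after their values were seen. *MAP3K14*, which encodes the noncanonical NF-κB kinase NIK, had 5473, 2527 and 2477 normalized counts against 2872 ± 104 in control cells (SD, n = 3). *IKBKG* and *IRAK1*, both on chromosome X, had 1.99 and 1.48 times their control mean in clone 1 and at most 0.969 times in clones 2 and 3. These 3 genes were high in clone 1 alone. *TSLP*, an epithelial cytokine gene, had 24.7, 7.8 and 71.1 in the 3 clones, with 53.6 ± 5.1 normalized counts in control cells (SD, n = 3), and *IL11*, of the IL-6 family, had 72.2, 19.9 and 77.4 against 33.0 ± 6.2 (SD, n = 3), so that clone 2 was lowest for both. Whether these differences belong to single clones or to single cultures cannot be told apart with 1 library per clone.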
